A study of Mus musculus with 16 samples.

Results

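The genes described here are the MHC class I heavy chain genes H2-K1, H2-D1, H2-T23, H2-Q1, H2-Q2, H2-Q7 and H2-Q10, the light chain gene B2m and the peptide transporter genes Tap1 and Tap2. They were taken by symbol from the gene names of the array files, control spots left out, which gave 10 genes and 20 probes among 41174 probes. RNA of lumbar spinal cord of male mice was measured on 16 arrays, 4 in each of 4 groups: wild-type (NonTg) mice of 40 days, SOD1G93A mice of 40 days, wild-type mice of 80 days and SOD1G93A mice of 80 days. SOD1G93A mice carry a human SOD1 transgene with an amyotrophic lateral sclerosis mutation and lose motor neurons with age. Both ages lie before the symptoms. All mice are labelled B6SJL, a mixed background of C57BL/6 and SJL. Those parent strains carry different MHC haplotypes, and neither the labels nor the methods used here give the haplotype of a mouse. Each array also carried a common Cy5 reference of pooled NonTg and SOD1G93A neonatal organs.

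MHC class I molecules hold peptides from the cell's own proteins at its surface, where CD8 T cells and natural killer cells read them. A heavy chain pairs with beta-2 microglobulin, the product of B2m, and takes up its peptide in the endoplasmic reticulum, into which the Tap1 and Tap2 proteins pump peptides. H2-K1 and H2-D1 encode classical heavy chains, and the Q and T region genes encode nonclassical ones. In the central nervous system, microglia and endothelial cells express class I genes, and motor neurons can do so after injury.

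The heavy chain genes are close copies of one another, so their probes are shown first. Each probe has 60 bases. The probes of H2-T23 (chr17:34134435-34134671, on build mm7 as the array files give it) and of H2-Q7 (chr17:33494682-33494913) share a run of 28 bases, in capitals, and match at 50 bases when laid side by side. A probe of H2-K1 (chr17:32077678-32077737) and one of H2-Q10 (chr17:33571803-33571862) share a run of 20 bases, in capitals, and match at 40. The Tap2 probe (chr17:32294682-32295269) shares no run over 8 bases with any other member probe.
H2-T23 A_51_P237754: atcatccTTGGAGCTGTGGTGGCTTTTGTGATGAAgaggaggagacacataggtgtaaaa
H2-Q7 A_51_P262079: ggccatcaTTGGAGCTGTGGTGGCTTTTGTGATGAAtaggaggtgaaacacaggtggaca
H2-K1 A_52_P50496: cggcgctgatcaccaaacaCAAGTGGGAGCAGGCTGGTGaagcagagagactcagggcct
H2-Q10 A_52_P428354: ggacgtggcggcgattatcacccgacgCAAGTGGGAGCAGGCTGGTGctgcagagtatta
Tap2 A_52_P86176: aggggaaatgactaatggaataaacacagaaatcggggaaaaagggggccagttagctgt

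Of the 105 pairs of class I probes, 8 shared a run of 9 or more bases, and of the other 85 pairs of member probes 0 did. A probe named for one class I gene may hold RNA of another, which was not tested, and the values below belong to probes. They were not assigned to single loci.

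The promoters of these genes were read from RefSeq (GRCm38.p6), in windows from 250 bases before to 50 after the start. A window was given for 8 of the 10 genes. Enhancer A of class I promoters binds NF-kB, and the interferon element beside it binds interferon regulatory factors. Capitals mark the enhancer A core GGGATTCCC and the class I interferon element core TTTCACTTC, each searched on both strands.
H2-K1, chr17:34000422-34000469, minus strand: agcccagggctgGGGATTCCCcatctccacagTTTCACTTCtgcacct
H2-D1, chr17:35262912-35262959, plus strand: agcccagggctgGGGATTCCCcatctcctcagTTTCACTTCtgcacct
H2-Q7, chr17:35439010-35439057, plus strand: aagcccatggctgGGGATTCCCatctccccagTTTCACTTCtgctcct
H2-Q10, chr17:35469902-35469949, plus strand: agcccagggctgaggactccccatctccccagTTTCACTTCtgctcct

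GGGATTCCC was found in the windows of H2-K1, H2-D1 and H2-Q7 and in 0.353% of all 32851 windows. TTTCACTTC was found in those of H2-K1, H2-D1, H2-Q7 and H2-Q10 and in 0.505% of all windows. The more general interferon element core GAAANNGAA was found in B2m and H2-T23, and in 8.56% of all windows. Tap1 and H2-Q2 had none of these letters in their windows.

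The signal of each probe is given as a log2 ratio of the cord sample to the reference after normalization within the array, where 0 is the typical ratio of probes of like brightness and not an equal amount of RNA. Of the 20 probes, 14 were well above background in the cord channel on all 16 arrays. Tap1, one subunit of the peptide transporter, was not well above background on any array. The B2m probe A_52_P105594, the H2-D1 probe A_52_P246277 and the H2-Q10 probe A_51_P230267 were well above background on 0, 1 and 1 arrays. These 4 probes were not tested. The array files describe A_52_P246277 as a thymus leukemia antigen and A_52_P105594 as unclassifiable. The H2-Q1 probe A_52_P231729 was well above background on 7 arrays and was tested at 80 days but not at 40 days. It passed the filter only through the SOD1G93A mice of 80 days, where 3 of 4 arrays were above background.

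The class I probes were read at dim to moderate signal in the cord channel. The brightest H2-K1 probe, A_51_P198434, read 390.8 to 1390.4 units in the cord channel and 12629.7 to 19031.6 units in the reference channel, before background correction and on unequal dye scales. The cord channel read 162.0 to 826.5 units for H2-D1, 170.0 to 531.0 units for H2-T23 and 373.0 to 1281.0 units for the brighter B2m probe, A_51_P129012. These spans are over animals of 1 tissue. With the cord channel quantile normalized alone, they were 3.08-fold for H2-K1, 4.13-fold for H2-D1, 2.75-fold for H2-T23 and 2.91-fold for B2m. Other class I probes were dim. H2-K1 A_52_P474242 read 68.5 to 184.5 units and H2-K1 A_52_P50496 read 73.5 to 206.0. H2-Q1 A_51_P425048 read 76.0 to 188.0 units and H2-Q10 A_52_P428354 read 57.0 to 114.0.

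The classical heavy chains varied between animals of the same group. For H2-K1 (A_51_P198434), wild-type mice of 40 days had log2 ratios of -1.62, -1.49, -1.30 and -0.74 in replicates 1 to 4, and SOD1G93A mice of 40 days had -0.90, -1.26, -1.31 and -1.75. At 80 days, wild-type mice had -0.80, -1.22, -0.59 and -1.21, and SOD1G93A mice had -0.83, -0.99, -0.82 and 0.03. Replicate 4 of the SOD1G93A mice of 80 days stood above every other array, and the other 3 lay within the range of the wild-type mice.

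For H2-D1 (A_51_P496996), wild-type mice of 40 days had -1.65, -1.66, -1.49 and -0.21, and SOD1G93A mice of 40 days had -0.62, -1.27, -1.38 and -1.85. At 80 days the values were -0.40, -1.19, -0.52 and -1.37 in wild-type and -0.53, -0.67, -0.14 and 0.15 in SOD1G93A mice. One wild-type mouse of 40 days and one SOD1G93A mouse of that age stood above their groups, and the genotypes overlapped at both ages.

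H2-T23 encodes Qa-1, a nonclassical chain that presents leader peptides of other class I proteins and is read by natural killer receptors. It had log2 ratios of -1.41, -1.34, -1.18 and -0.01 in wild-type mice of 40 days and -0.16, -1.01, -0.77 and -1.45 in SOD1G93A mice of 40 days. At 80 days the values were -0.14, -1.04, -0.62 and -1.13 in wild-type and -0.25, -0.19, -0.04 and 0.01 in SOD1G93A mice. All 4 SOD1G93A mice of 80 days were at the high level that 1 mouse of each other group reached.

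**Figure D1:**
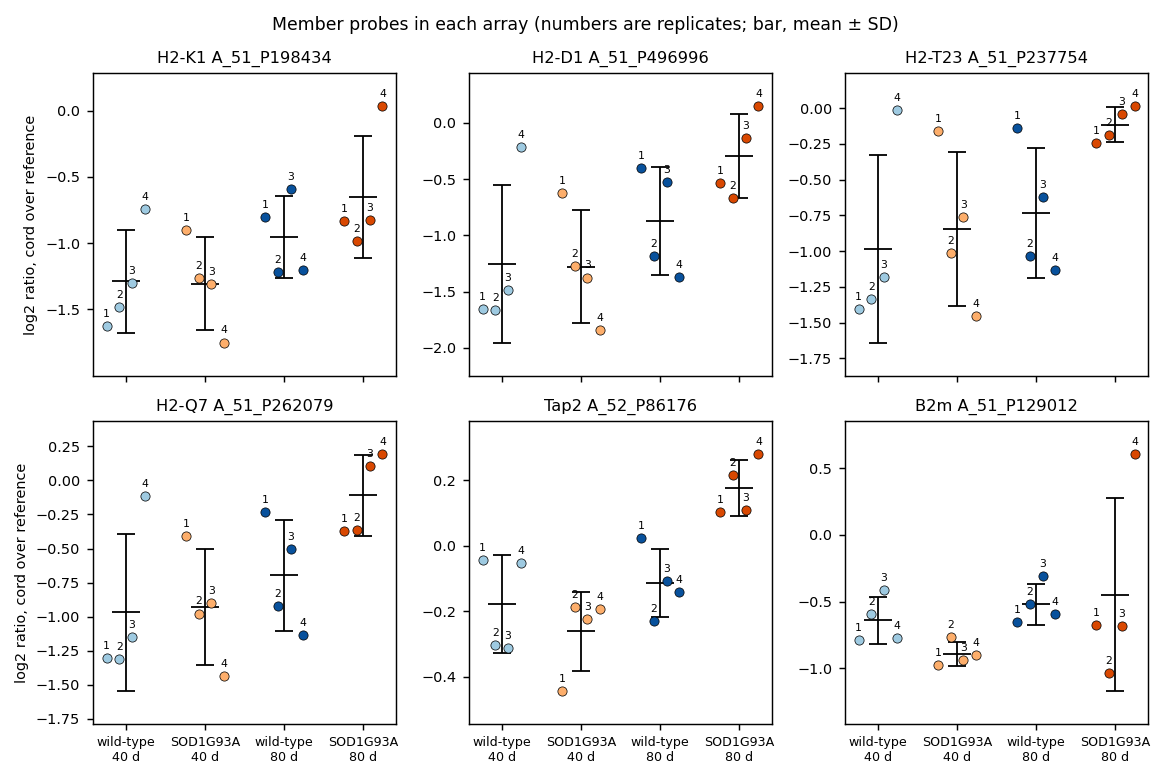
Log2 ratio of cord over reference (y axis) for 6 member probes in each array, by group (x axis), with replicate numbers at the points and the mean ± SD of 4 arrays as bars. H2-D1, H2-T23 and H2-Q7 spread widely within the first 3 groups, Tap2 is highest in all 4 SOD1G93A arrays of 80 days, and B2m stands out on 1 array, at 0.60.

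The same animals were high and low with nearly all class I probes. The SD within groups was 0.30 to 0.53 for 12 of the 13 class I probes tested, all above the 95th percentile of the 21948 probes tested over the 4 groups (0.26), where the median probe had 0.11. From the lowest to the highest array, these 12 probes spanned 2.00-fold to 3.98-fold. The SD was 0.37 for B2m A_51_P129006, 0.38 for B2m A_51_P129012 and 0.12 for Tap2, the last close to the median probe.

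**Figure D2:**
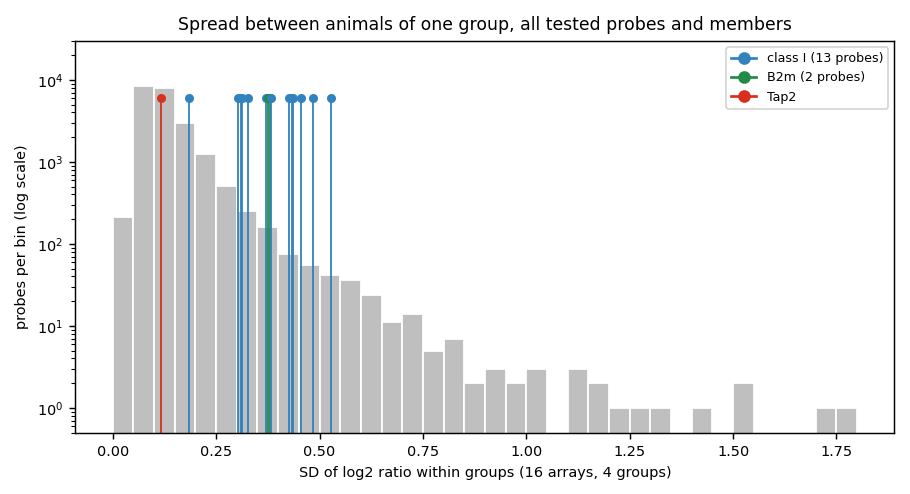
Number of probes (y axis, log scale) by the SD of their log2 ratio within groups (x axis), over 21948 probes, with a vertical line for each member probe. Tap2 lies among most probes at 0.12, and 12 class I probes and both B2m probes lie between 0.30 and 0.53.

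Among these 12 probes, wild-type replicate 4 of 40 days was the highest of its group for 12, and SOD1G93A replicate 1 of 40 days was the highest of its group for 12. SOD1G93A replicate 4 of 40 days was the lowest for 12. At 80 days, wild-type replicate 1 was the highest for 9 and replicate 3 for the other 3. In the SOD1G93A mice of 80 days the highest was replicate 4 for 8 probes, replicate 3 for 3 and replicate 1 for 1. Slide k held replicate k of all groups, so the high arrays of 40 days lay on different slides.

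Deviations of these 12 probes from their group means, over 16 arrays, correlated with a Pearson r of 0.32 to 0.99 between pairs (median 0.90, 66 pairs). All points share arrays and labelling, and probes of like sequence can share RNA. The probe A_51_P230269 of H2-Q10 was the exception among the class I probes. H2-Q10 encodes a secreted chain made mainly by liver. This probe shares at most 7 bases in a run with any other class I probe. The same holds for H2-D1 A_51_P496996, which moved with the others (r of 0.98 with H2-Q2). A_51_P230269 was also dim, at 46 to 72 units in the cord channel, and well above background on 14 of 16 arrays. H2-Q1 A_52_P231729, 1 of the 12, was dim too, at 40 to 67.5 units. Why A_51_P230269 differed was not tested. Its SD within groups was 0.18 and its deviations had an r of -0.75 to -0.21 with the other class I probes. The other H2-Q10 probes, A_51_P496997 and A_52_P428354, had an r of -0.50 and -0.65 with it, and the B2m probes 0.50 and 0.52.

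**Figure D3:**
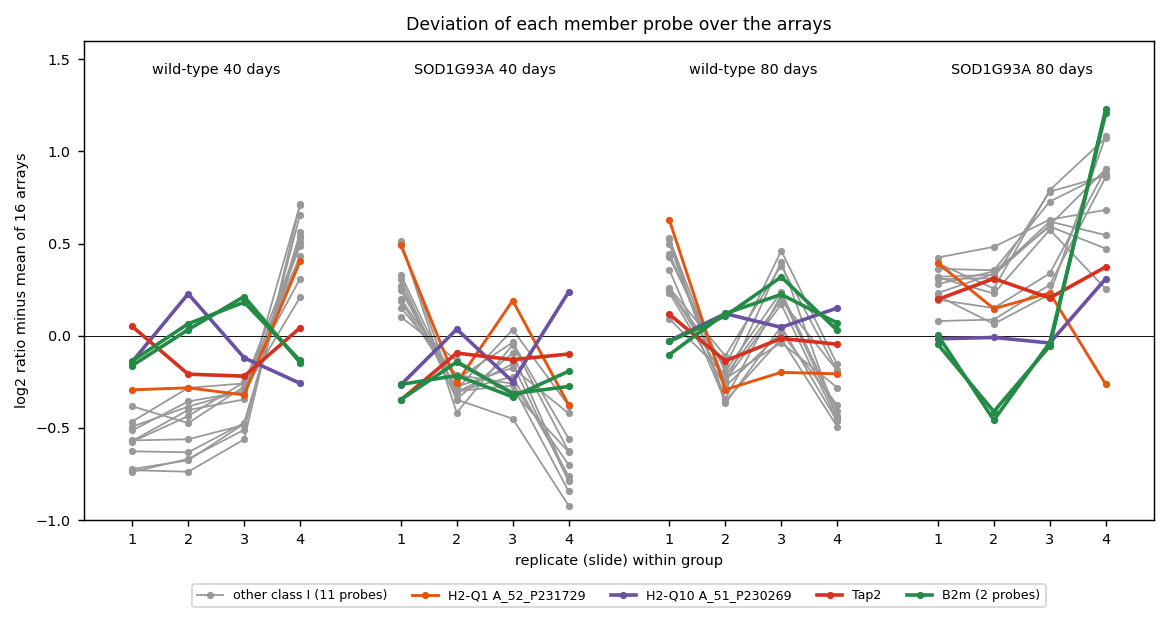
Log2 ratio minus the mean of 16 arrays (y axis) for each of 16 member probes, by replicate within group (x axis); lines only join values of 1 probe, since replicates have no order. The 11 grey class I probes move together, while B2m peaks on SOD1G93A replicate 4 of 80 days and H2-Q1 A_52_P231729 is low there.

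The probe A_52_P231729, made for a Q1b transcript, also separated single animals. It had -0.45, -0.44, -0.48 and 0.25 in wild-type mice of 40 days and 0.34, -0.41, 0.04 and -0.53 in SOD1G93A mice of 40 days. At 80 days the values were 0.47, -0.45, -0.35 and -0.36 in wild-type and 0.24, -0.01, 0.08 and -0.42 in SOD1G93A mice. SOD1G93A replicate 4 of 80 days, the highest array for most other class I probes, was among the low arrays here. The well above background arrays were 1 and 2 of 4 at 40 days and 1 and 3 of 4 at 80 days, wild-type first, so the low values hold little signal.

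The genes with the most similar deviations lay largely on chromosome 17, which holds the MHC. For each of the 12 probes, 10 to 18 of the 20 most similar non-member probes were on chromosome 17, against 4.46% of the 21749 probes compared. For the brightest H2-K1 probe, the 3 most similar were LOC56628 (r = 0.99), LOC630499 (r = 0.97) and an unnamed transcript (r = 0.95). The LOC56628 probe shares a run of 25 bases with the H2-K1 probe itself, and that of the unnamed transcript a run of 35 with the H2-Q2 probe. For H2-D1 they were H2-Q5 (r = 0.99), an unnamed transcript (r = 0.99) and a second LOC56628 probe (r = 0.97). For H2-T23 they were that LOC56628 probe (r = 0.98), the same unnamed transcript (r = 0.94) and H2-T22 (r = 0.94). The H2-Q5 probe shares a run of 35 bases with H2-Q10 A_51_P496997, and the second LOC56628 probe a run of 24 with the H2-Q2 probe. Such probes can share RNA with members. LOC630499 and the transcript named for both H2-D1 and H2-T23 share at most 10 bases with any member probe, and H2-T22 at most 7. Probes were compared with probes and not with transcripts, so a short run does not show that they read different RNA. The r values describe 16 arrays and carry no test.

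At 40 days the class I heavy chains of SOD1G93A and wild-type mice were not distinguishable. The question was whether antigen presentation genes differ long before symptoms. Of 12 class I probes tested, 0 were called at p under 0.05 with limma, the log2 fold changes ran from -0.05 to 0.14 and their median was 0.01, beside 0.00 over all probes. Over all probes 953 of 21333 were called, so 0 of 12 is close to that share. The class I median rested on single arrays: it was 0.27 without wild-type replicate 4, 0.17 without SOD1G93A replicate 4 and -0.12 without SOD1G93A replicate 1, and lay between -0.08 and 0.02 without any other. H2-T23 had the highest, 0.14 ± 0.33 (SE), and H2-D1 had -0.02 ± 0.34. With SEs of 0.13 to 0.34, changes of that size and larger ones could be missed. In whole cord, fewer cells of a type and less RNA per cell cannot be told apart, here and in what follows. Tap2 had a log2 fold change of -0.08 ± 0.09.

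B2m was lower in SOD1G93A mice at 40 days, on both probes that were above background. For A_51_P129006, wild-type mice had -1.01, -0.81, -0.69 and -1.01 and SOD1G93A mice -1.14, -1.09, -1.21 and -1.07, so the groups did not overlap. For A_51_P129012, wild-type mice had -0.79, -0.59, -0.41 and -0.77 and SOD1G93A mice -0.97, -0.77, -0.94 and -0.90, and the groups overlapped slightly. The log2 fold changes were -0.24 ± 0.08 and -0.25 ± 0.09 (SE), both called at p under 0.05 by limma. The Benjamini-Hochberg adjusted p was 0.998 for both, and the exact permutation p, two-sided over 4 against 4 arrays, was 0.0286 for the first, the smallest it can give, and 0.0857 for the second.

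The 2 B2m probes are 2 of 15 member probes tested, both lower, where 2.03% of all 21333 probes were called lower. The authors list B2m as lower at 40 days from these same arrays, so this count gives no independent support. The 2 probes read 1 gene on the same arrays, and their deviations had an r of 0.99, so the 2 calls are not independent. Of the 15, 1 had groups without overlap in the lower direction, where 1.30% of all probes did. With the cord channel alone, A_51_P129006 had -0.15, and in the authors' processed values it had -0.12, neither of them called. Meningeal fibroblast markers had log2 fold changes below 0 on 8 of 8 probes, with 0 called and a median of -0.64. Endothelial markers had 0 of 11 probes called, with 9 below 0 and a median of -0.05. Over all probes, 2.44% were called higher. Microglial markers had 2 of 18 probes called, both higher: C1qc at 0.35 and C1qb at 0.29. The median of that list was 0.015, with 12 probes above 0 and 6 below. Astrocyte markers had 4 of 9 probes called, all higher (S100b, Gfap, Slc1a2 and Slc1a3), with a median of 0.19 and 9 above 0. Oligodendrocyte markers had 3 of 12 called, all higher, with a median of 0.16 and 12 above 0. Their part in the B2m difference was not tested.

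At 80 days 9 member probes were higher in SOD1G93A mice: 8 class I probes and Tap2. Of all 21599 probes, 3.74% were called higher at p under 0.05. From these same arrays, the authors list H2-K1, H2-Q1, H2-Q2, H2-Q7, H2-Q10, H2-T23 and Tap2 as higher at 80 days. The members were chosen with such results known. Their counts beside those of all probes, here and below, therefore give no independent support for a difference. The class I probes largely move together between animals (median r of 0.90), so their calls, here and below, are not independent. The median log2 fold change of the 13 class I probes, A_52_P231729 among them, was 0.52, beside -0.00 over all probes. None of the 16 member probes passed the Benjamini-Hochberg adjustment, the smallest adjusted p being 0.65.

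The largest class I change was that of H2-T23, at 0.62 ± 0.19 (SE, 1.53-fold). H2-Q2 rose by 0.60 ± 0.21, H2-Q7 by 0.59 ± 0.20 and H2-D1 by 0.57 ± 0.24. These are nonclassical chains apart from H2-D1, and H2-Q7 encodes Qa-2, which is anchored in the membrane by a lipid. Their limma adjusted p-values were 0.67 for H2-T23, 0.68 for H2-Q2 and H2-Q7 and 0.71 for H2-D1. The exact permutation p was 0.0857 for H2-T23 and H2-Q7, 0.114 for H2-Q2 and 0.171 for H2-D1, since the groups overlapped.

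Of the 3 H2-K1 probes 1 was called. A_52_P474242 was called at 0.55 ± 0.16 (exact permutation p = 0.0857), whereas A_52_P50496 had 0.36 ± 0.17 (p = 0.171) and A_51_P198434, the brightest, had 0.30 ± 0.22 (p = 0.457), neither of them called. Among the H2-Q1 probes, A_51_P425048 was called at 0.53 ± 0.14 (exact permutation p = 0.0571), while A_52_P582814 had 0.31 ± 0.18 and A_52_P231729 had 0.14 ± 0.20. With each array left out in turn, H2-K1 A_52_P50496 ran from 0.18, without SOD1G93A replicate 4, to 0.44, and was called in 3 of 8 cases: without wild-type replicate 3 or SOD1G93A replicate 1 or 2. H2-Q1 A_52_P582814 ran from 0.14 to 0.41 and was never called, its lowest value again without SOD1G93A replicate 4. H2-Q1 A_52_P231729 ran from 0.05 to 0.36 over the 5 cases in which it was tested, and was called without wild-type replicate 1. It passed the filter only through the SOD1G93A mice, the higher group, so this call gives no support for a difference. The array files describe A_52_P582814 as a transcript of Q region locus 4. Of the H2-Q10 probes, A_51_P496997 was called at 0.52 ± 0.19 (exact permutation p = 0.114) and A_52_P428354 at 0.42 ± 0.12 (p = 0.0571). A_51_P230269 had -0.01 ± 0.09. The called probes A_52_P474242, A_51_P425048 and A_52_P428354 were dim, as were A_52_P50496, A_52_P231729 and A_51_P230269, which were not called with all arrays.

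**Figure D4:**
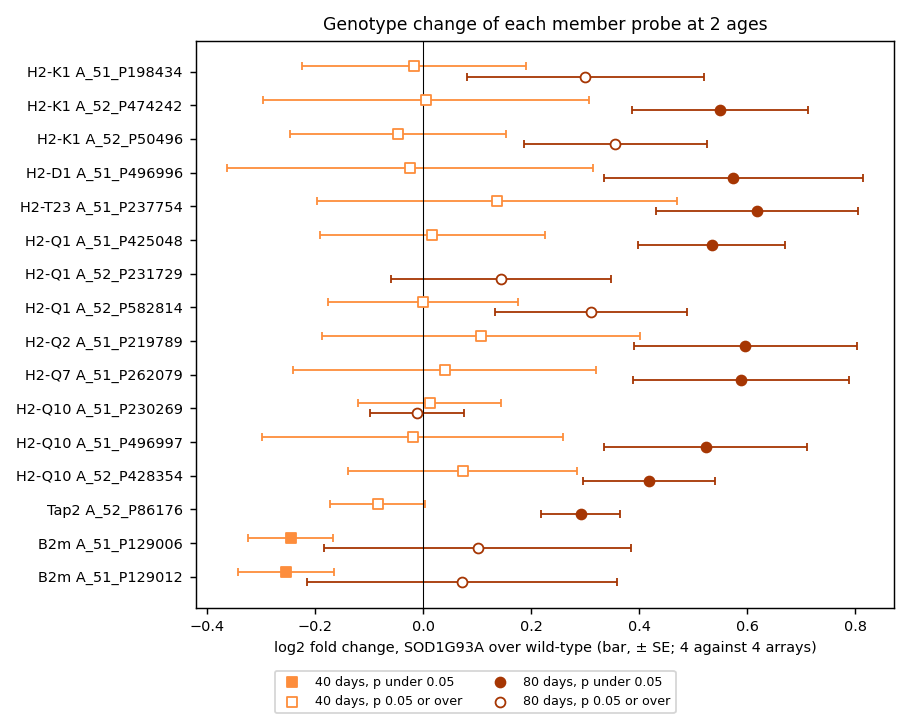
Log2 fold change of SOD1G93A over wild-type mice (x axis, bars ± SE, 4 against 4 arrays) for each member probe tested (y axis), with squares for 40 days, circles for 80 days and filled symbols for p under 0.05. At 80 days 9 probes are filled to the right of 0, and at 40 days only the 2 B2m probes are filled, to the left.

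The slides show how uneven the class I difference was. Within slides 1 to 4, H2-T23 in the SOD1G93A mouse of 80 days minus the wild-type mouse was -0.10, 0.85, 0.58 and 1.15. H2-D1 gave -0.13, 0.52, 0.39 and 1.52, and brightest-probe H2-K1 gave -0.03, 0.23, -0.24 and 1.24. For H2-T23 and H2-D1 the highest wild-type mouse was on slide 1 and for this H2-K1 probe on slide 3, and slide 4 gave the largest difference for each of the 3 probes. With the slide as a block, 9 member probes were called at 80 days, where 4.22% of all probes were called higher, and 2 at 40 days.

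SOD1G93A replicate 4 of 80 days stood apart in other genes too. It also had a low share of probes well above background in Cy3, 48.9%. It had the most Cy3 spots with a reset local background, 63. The part of array quality in its values was not tested. The microglial list, as the median deviation of 14 genes from their mean over arrays, was 1.03 on this array and 0.69 on wild-type replicate 3 of 80 days, and between -0.22 and 0.06 on the other 14. The interferon response list was 0.64 on this array and at most 0.20 on any other. Without this array, 7 probes stayed called higher, among them H2-T23 at 0.57, H2-Q1 A_51_P425048 at 0.50 and Tap2 at 0.26, beside 4.46% of all probes. H2-D1 then had 0.43 and H2-Q10 A_51_P496997 had 0.40, both no longer called, and the brightest H2-K1 probe had 0.07. These calls also depended on other arrays. With each of the 8 arrays left out in turn, H2-D1 ran from 0.41 to 0.73 and lost its call in 4 cases: without this array, SOD1G93A replicate 3 or wild-type replicate 2 or 4. H2-Q10 A_51_P496997 ran from 0.38 to 0.66 and lost it in 3: without this array or wild-type replicate 2 or 4. The part of microglia in the class I values of this array was not tested.

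B2m at 80 days turned on this array alone. A_51_P129012 had -0.66, -0.52, -0.31 and -0.60 in wild-type mice and -0.67, -1.04, -0.68 and 0.60 in SOD1G93A mice. The log2 fold change was 0.07 ± 0.29 with the array and -0.28 ± 0.11 without it, called lower then (limma adjusted p = 0.64). A_51_P129006 had 0.10 ± 0.28 with it and -0.24 ± 0.12 without it, not called in either case. On A_51_P129012 the 3 other SOD1G93A mice lay just below the lowest wild-type mouse or further down, while their H2-T23 values were at the upper end.

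The light chain followed the heavy chain probes unevenly between animals. Over 26 pairs of a B2m and a class I probe, r of the deviations had a median of 0.16 and ran from -0.47 to 0.58. The brightest H2-K1 probe had 0.54 and 0.58 with the B2m probes, and H2-Q1 A_52_P231729 had -0.47 with each. The genes most similar to the brighter B2m probe were H2-Q8 (r = 0.97), Klhl6 (r = 0.97) and Plek, a leukocyte protein (r = 0.96). H2-Q8 is itself a class I gene, and its probe shares a run of 10 bases with this B2m probe. The highest array for B2m was also the highest for the microglial list, and the second highest, wild-type replicate 3 of 80 days, was second there too. These r values rest largely on SOD1G93A replicate 4 of 80 days, which is far from its group mean.

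**Figure D5:**
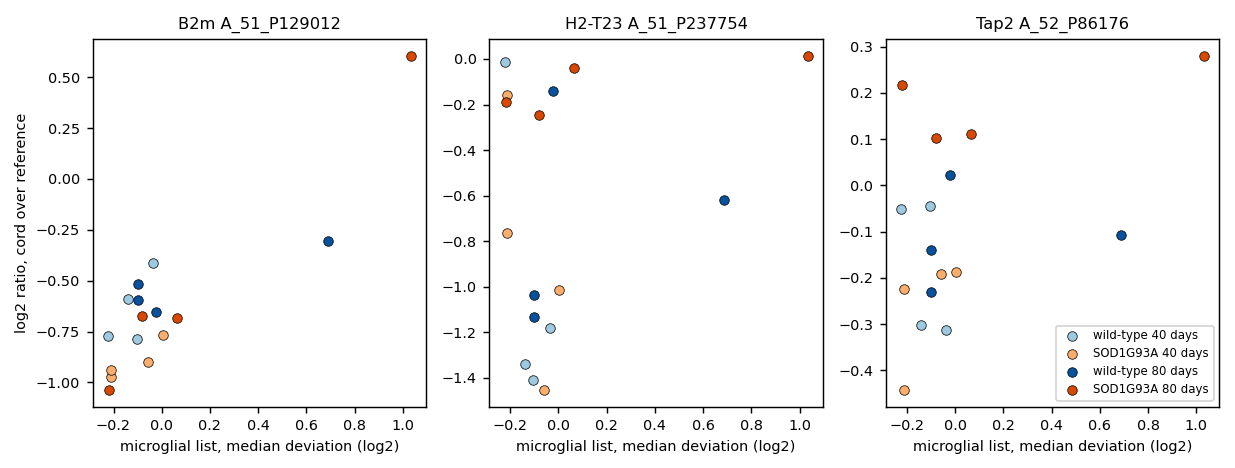
Log2 ratio of B2m, H2-T23 and Tap2 (y axes) against the median deviation of the microglial list (x axis, log2) for 16 arrays, coloured by group. B2m is highest on the 2 arrays with the highest microglial list, at 1.03 and 0.69, while H2-T23 and Tap2 reach high values on arrays with a low list.

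Tap2, the other subunit of the transporter, gave the most even difference. Wild-type mice had -0.04, -0.30, -0.31 and -0.05 at 40 days and 0.02, -0.23, -0.11 and -0.14 at 80 days. SOD1G93A mice had -0.44, -0.19, -0.22 and -0.19 at 40 days and 0.10, 0.22, 0.11 and 0.28 at 80 days. The 4 SOD1G93A arrays of 80 days were above all others. At 80 days the log2 fold change was 0.29 ± 0.07 (1.22-fold, limma adjusted p = 0.65), and the exact permutation p was 0.0286, the smallest possible.

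Tap2 was the 1 member probe of 16 whose groups did not overlap at 80 days, where 2.03% of all probes were higher without overlap. The SOD1G93A mouse was the higher on each of the 4 slides, by 0.08, 0.45, 0.22 and 0.42. The Cy3 signal of Tap2 was 68.5 to 118.0 units before background correction, which makes it a dim probe. Its deviations had an r of 0.03 to 0.21 with the 13 class I probes.

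Whether the genotype difference depended on age was tested over both ages together. For Tap2 the difference of the log2 fold changes, 80 days minus 40 days, was 0.38 ± 0.12 (limma adjusted p = 0.55) over 16 arrays, and the exact permutation p, with genotypes exchanged within ages, was 0.0135. Tap2 was 1 of 16 member probes called, where 6.68% of all 21948 probes were called in either direction, so the count is no more than that of all probes. The class I probes had a median difference of 0.48, with SEs up to 0.46, and 0 of 13 were called. Those called at 80 days only were therefore not shown to differ between the ages.

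Within SOD1G93A mice, 12 of 16 member probes were higher at 80 than at 40 days, where 8.64% of all probes were called higher. The 12 were 11 class I probes, at 0.44 to 0.98 and not independent of one another, and Tap2 at 0.44 ± 0.08. H2-D1 changed most, at 0.98 ± 0.32 (limma adjusted p = 0.14). Tap2 was the only member with an adjusted p under 0.05 (limma, adjusted p = 0.012), as were 0.251% of all probes in that direction. Microglial markers had 5 of 18 probes called higher in the same comparison (C1qb, C1qc, Trem2, Tmem119 and Csf1r), with a median of 0.33, and the interferon response list had 3 of 24 (Igtp, Irgm1 and Ifit3), with a median of 0.17. Their part in the class I and Tap2 values was not tested. Without SOD1G93A replicate 4 of 80 days 8 members were called, beside 9.48% of all probes called higher, and Tap2 had 0.41. This comparison and the genotype comparisons share the same SOD1G93A arrays.

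Within wild-type mice 0 of 16 member probes were called between the ages with limma, where 15.1% of all probes were called in either direction. All 16 log2 fold changes were above 0, at 0.03 to 0.38. The count rested on wild-type replicate 4 of 40 days, the array with high class I values. That array had the lowest share of probes well above background in Cy3, 45.9%, and the most outlier spots, 301. Without this array 8 class I probes were called higher at 80 days, H2-D1 at 0.73 and H2-Q2 at 0.61 among them, where 7.36% of all probes were called higher. With all wild-type arrays, 2 of 18 microglial probes were called higher at 80 days, C1qb at 0.62 and C1qc at 0.67. In that list 16 probes were above 0, with a median of 0.19. In SOD1G93A mice C1qb had 0.50 and C1qc 0.61. Over all probes 6.78% were called higher within wild-type mice.

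A wider list held other class I heavy chain genes and genes of class I processing, loading and regulation. Of its 44 probes for 29 genes, 1 was called higher at 80 days, where 3.74% of all probes were, H2-Q5 at 0.54, and 1 lower, where 674 of 21599 probes were: Rfxank at -0.34, a subunit of the factor that binds the X box of MHC promoters. The median of the list was 0.03. At 40 days 1 of 43 was called, beside 953 of all 21333 probes: Nfyb, a subunit of the CCAAT-binding factor, at 0.16. An Mr1 probe was the 1 of 44 called for a different genotype change at the 2 ages, at -0.22. Over all probes 6.68% were called in either direction, so the count is no more than that of all probes.

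Within SOD1G93A mice the list had 7 of 44 probes called higher and 1 lower from 40 to 80 days, beside 8.64% of all probes called higher. Higher were the immunoproteasome subunits Psmb8 (0.45 and 0.48 on 2 probes) and Psmb9 (0.46), Irf1, an interferon regulatory factor (0.47), H2-M3, which presents formylated peptides (0.39), H2-Q5 (0.79) and Tapbpl, a peptide editor (0.21). Calr, a chaperone of the loading complex, was lower at -0.31. Irf1 and H2-M3 had adjusted p-values of 0.040 and 0.032. Within wild-type mice 5 were higher, beside 6.78% of all probes, among them H2-M3 at 0.30, Psmb8 at 0.35 and H2-Q8 at 0.51, and 1 lower, Hfe at -0.28.

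Markers of cells that could carry class I RNA were read beside these results. At 80 days 0 of 18 microglial, 0 of 24 interferon response, 0 of 11 endothelial, 0 of 2 T cell and 0 of 2 B cell probes were called for genotype, with medians of 0.10, 0.15, 0.00, -0.00 and -0.03. Of the 8 T cell genes, Cd3g, Cd4 and Cd2 were well above background on 0 arrays, Cd3d and Cd8a on 1, Lck on 4, Cd3e on 7 and Cd8b1 on 16. The T cell list lay between -0.10 and 0.09 on every array, from the 2 genes tested, Lck and Cd8b1. Of the meningeal fibroblast probes 1 of 8 was called at 80 days, Igf2 at -0.30. Over all probes 1481 of 21599 were called for genotype at that age. The part of these cells in the class I values was not tested.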

How the data were processed

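The authors labelled cord RNA with Cy3 and reference RNA with Cy5, scanned the arrays and read spots with Agilent Feature Extraction 9.5.3.1 (per the labels). The deposited spot signals are intensities without normalization. The deposited series matrix holds log2 values that follow the Cy3 channel (r of 0.998 on the first array). It was used as an alternative. Methods give 5 animals a group, of which 4 arrays each were used here.

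With limma 3.58.1 in R 4.3.3, local backgrounds over 20 units above a spot's median signal were set to the array median, then normexp (offset 50) and loess (span 0.3) gave log2 ratios of Cy3 to Cy5. Outlier spots were dropped and spots of a probe averaged. The share of probes well above background in Cy3 was 45.9% to 55.3%, and array number limits the precision. A probe was tested if well above background on 3 of 4 arrays of a group and measured on 2 of each. Genotypes were compared within ages by lmFit and eBayes on 8 arrays, and ages and their interaction on 16. Calls use an unadjusted two-sided p under 0.05, with Benjamini-Hochberg adjusted p-values over all probes. P-values measure the spread between these arrays. Fits were tested on simulated data. All member probes were reported singly, and listed genes were named where p was under 0.05. Members and lists were chosen with earlier results of these data known. Replicate numbers match slides, whose position cannot be told apart from group. Same-numbered arrays had deviation correlations of -0.07 to 0.20, so they were not treated as pairs.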

Additional observations from a re-analysis of the deposited data

Results flagged for a closer look

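Of 64 groups of 4 arrays, 1 for each tested member probe and group, 9 held an array whose gap to its nearest neighbour was a larger part of the group's range than Dixon's critical value, and about 1 in 20 groups does so by chance. On wild-type replicate 4 of 40 days this was so for 5 class I probes: H2-D1 (gap 0.879 of the range, log2 ratio -0.21 against -1.49 for its neighbour), H2-T23 (0.836), H2-Q7 (0.866), H2-Q10 A_51_P496997 (0.925) and H2-Q1 A_52_P231729 (0.947, at 0.25 against -0.44). These probes share much of their variation, so these cases are not independent. On wild-type replicate 1 of 80 days, H2-Q1 A_52_P231729 was also high (0.898, at 0.47 against -0.35). On SOD1G93A replicate 4 of 80 days, H2-K1 A_51_P198434 (0.842, at 0.03 against -0.83) and H2-Q10 A_51_P230269 (0.914, at -0.27 against -0.59) were high. Tap2 was low on SOD1G93A replicate 1 of 40 days (0.859, at -0.44 against -0.22), and without that array its difference between the ages was 0.32. Tap2 was the 1 of 16 member probes called for a different genotype change at the ages, by 0.376 on the log2 scale (limma adjusted p = 0.55), where 6.68% of all probes were called.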

How the results depend on the processing

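The number of member probes called kept within 1.5 times of its value under most alternatives. At 40 days it went from 2 to 1 with the Cy3 channel alone and with the authors' series matrix, and it was 2 with each array left out. At 80 days it was 8 to 11 against 9 under the alternatives, and 7 to 10 with each array left out, while the share of all probes called higher ran from 2.38% without the reset of local backgrounds to 6.15% with array weights. For the difference between the ages it went from 1 to 2 without loess, H2-Q1 A_51_P425048 being added, and was 1 to 3 with each array left out: 2 without wild-type replicate 2 of 40 days or replicate 1 of 80 days, and 3 without SOD1G93A replicate 1 of 40 days. Within wild-type mice it was 0 to 8 with each array left out, 8 without replicate 4 of 40 days and 1 without replicate 2. Within SOD1G93A mice it was 7 to 13 against 12, with 7 without replicate 4 of 40 days. Tap2 kept its call at 80 days under every alternative run, at 0.25 to 0.34 with each array left out. H2-Q10 A_51_P230269 at 80 days, at -0.01, changed sign to 0.0483 without background subtraction, 0.157 with processed signals, 0.00592 without loess, 0.00876 with Cy3 alone and 0.0279 in the series matrix, and ran from -0.0939 to 0.0223 with each array left out. B2m at 80 days changed sign with array weights, to -0.10 for A_51_P129006 and -0.10 for A_51_P129012, and ran from -0.24 to 0.31 and from -0.28 to 0.27 with each array left out. The cause of these changes was not tested. The replicate block, which is the slide, gave 2, 9, 1, 0 and 11 member probes called in the 5 comparisons against 2, 9, 1, 0 and 12, and Tap2 kept its call at 80 days under it. Same-numbered arrays did not deviate together. With 4 arrays a group, and probes such as Tap2 and H2-Q1 A_52_P231729 near the background, changes well above the SEs given could be missed. H2-K1 A_52_P50496 at 80 days, at 0.36 ± 0.17 (SE), was not called.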
